A study of Oryza sativa Japonica Group with 238 samples.

Results

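The genes described here are 8 rice genes of inorganic phosphate transport and signalling, chosen by locus identifier from the 28248 genes with expression values. They are the phosphate transporters PT1 (OS03G0150600), PT2 (OS03G0150800), PT4 (OS04G0186400), PT6 (OS08G0564000), PT8 (OS10G0444700) and PT11 (OS01G0657100), the phosphate exporter PHO1;2 (OS02G0809800) and the phosphate sensor SPX1 (OS06G0603600). Expression values were used for 7 of the 8, since PT11 was not analysed in RNA, and counts of open chromatin upstream of the gene were used for all 8. No sequence or genome position of these genes is given, because no sequence table or annotation of the build used by the study was used here.

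Roots take up inorganic phosphate through plasma membrane proteins of the PHT1 family, which move phosphate together with protons. In rice, PT2 is a low-affinity carrier linked to movement within the plant, PT6 and PT8 are high-affinity carriers, PT1 and PT4 contribute to uptake and to transport towards shoot and grain, and PT11 is the carrier of the symbiosis with arbuscular mycorrhizal fungi. PHO1;2 loads phosphate from root cells into the xylem, and SPX1 binds the transcription factor PHR2 when phosphate is plentiful and keeps it from activating phosphate starvation genes. Transcripts of several of these genes are known to rise when phosphate is short, which was not a treatment in this study.

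The series holds 238 libraries of Oryza sativa cv. Nipponbare roots. All plants carried a transgene, and each line is named by the promoter that drives it. In 157 libraries, RNA was pulled down on ribosomes carrying the tagged ribosomal protein HF-GFP-OsRPL18 (translating ribosome affinity purification, TRAP). The tag was driven by 11 promoters: the near-constitutive 35S, and those of RSS1, CMZ, CASP, LSI1, QHB, EXP5B, HMA5, NRAMP5 and SHR1 and the AtSCR promoter (here SCR). A further 30 libraries held total RNA (TOTAL) of the 35S line, and 51 held chromatin accessibility (ATAC-seq) of nuclei tagged in the lines p35S:NTF2, pCMZ:NTF and pQHB:NTF. Greenhouse plants were 26 days old in control I and control II (watered daily), water deficit (watering stopped), waterlogging (water above the root-shoot junction) and submergence (whole plant under water, shaded), all treated from day 21, and 27 days old after 1 day of recovery from each stress. Field plants were 49 days old and came from a paddy, and plate seedlings were 7 days old on agar with Murashige and Skoog salts and sucrose. A greenhouse pot of 21 plants, fertilised at 100 ppm nitrogen, was pooled as 1 replicate. Each group has 3 replicates, except 4 for CMZ on plates, and the series calls them biological replicates. Age and growth place change together in the field and plate groups and cannot be told apart. The labels do not pair control II with submergence; control II was used because it occurs in the same sets.

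Expression is given as TPM, a relative transcript abundance scaled for gene length that sums to nearly the same total in each library. TPM keeps no sequencing depth, so the depth behind a value is unknown. The highest correlation between any pair of RNA libraries was 0.988, and 0 pairs were identical. The gene of the driving promoter was far above its 35S TRAP level in the control I roots of the QHB line (174 against 0.257 TPM), the RSS1 line (467 against 6.68 TPM) and the LSI1 line (2474 against 353 TPM). It was not so raised in field roots of the NRAMP5 line (31.0 against 25.4 TPM) or the HMA5 line (29.6 against 27.0 TPM). In field roots of the EXP5B line its own promoter gene was at 2.16 TPM, against 6.67 TPM in the SHR1 line, and SHR1 was higher in the LSI1 line (106 TPM) than in the SHR1 line (18.2 TPM). The last 4 lines are therefore described below as labelled, without a cell type. The root gene RCc3 ranged from 3.40 to 8.02 TPM in 35S TRAP control I and from 99.7 to 162 TPM in 35S TOTAL control I. A list of 9 shoot genes (chlorophyll-binding proteins and small subunits of ribulose bisphosphate carboxylase) summed to 24.9 to 46.3 TPM in 35S TRAP control I and to 1473 to 7898 TPM in 35S TRAP on plates. In 35S TOTAL on plates the sum was 133 to 425 TPM.

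Over the 187 RNA libraries, PHO1;2 had the highest median level at 121 TPM (from 4.83 to 594.5 TPM), followed by PT8 at 92.1 TPM (from 3.60 to 314 TPM) and PT1 at 88.1 TPM (from 5.92 to 447 TPM). PT4 had a median of 15.2 TPM (from 0.574 to 136 TPM), SPX1 of 9.89 TPM (from 1.31 to 54.7 TPM) and PT2 of 8.40 TPM (from 0.494 to 84.0 TPM). PT6 was the lowest, with a median of 0.685 TPM and a range of 0.0702 to 16.5 TPM. Its mean was under 1 TPM in 32 of the 62 RNA groups. Each gene ranged widely over lines and environments, and the order of the genes changed with them.

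The groups at the top and bottom of each gene's range were not the same ones. PT1 was highest in submerged 35S TRAP roots (410 ± 41.3 TPM, SD, n = 3), then in submerged RSS1 roots (336 ± 99.7 TPM), whose ranges overlapped, and lowest in QHB plate roots (9.31 ± 3.51 TPM), below the next group up. PT2 was highest in field roots of the SHR1 line (66.7 ± 16.4 TPM) and of 35S TOTAL (63.9 ± 24.8 TPM), which overlapped, and lowest in QHB plate roots (0.565 ± 0.0640 TPM). The 3 highest PT4 means were all in water deficit, at 85.6 ± 6.82 TPM in 35S TRAP, 83.3 ± 13.2 TPM in RSS1 and 73.2 ± 35.6 TPM in CMZ, with overlapping ranges. The lowest PT4 means were in field roots of NRAMP5 (1.47 ± 0.848 TPM) and LSI1 (1.84 ± 0.741 TPM). PT6 was highest in NRAMP5 field roots (10.3 ± 5.43 TPM) and 35S TRAP control I (10.2 ± 3.75 TPM), which overlapped. PT8 and PHO1;2 had their 3 lowest means in the LSI1 line, and SPX1 its 3 highest. The LSI1 means were 4.44 to 5.52 TPM for PT8, 5.58 to 7.17 TPM for PHO1;2 and 40.6 to 47.7 TPM for SPX1. The ranges of these groups overlapped for PT8 and PHO1;2, and for SPX1 all but those of waterlogging and control I did. PT8 was highest in RSS1 control I (190 ± 107 TPM), PHO1;2 in SCR control I (353 ± 210 TPM), and SPX1 lowest in water deficit in 35S TOTAL (3.43 ± 0.555 TPM) and 35S TRAP (4.43 ± 0.790 TPM).

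**Figure D1:**
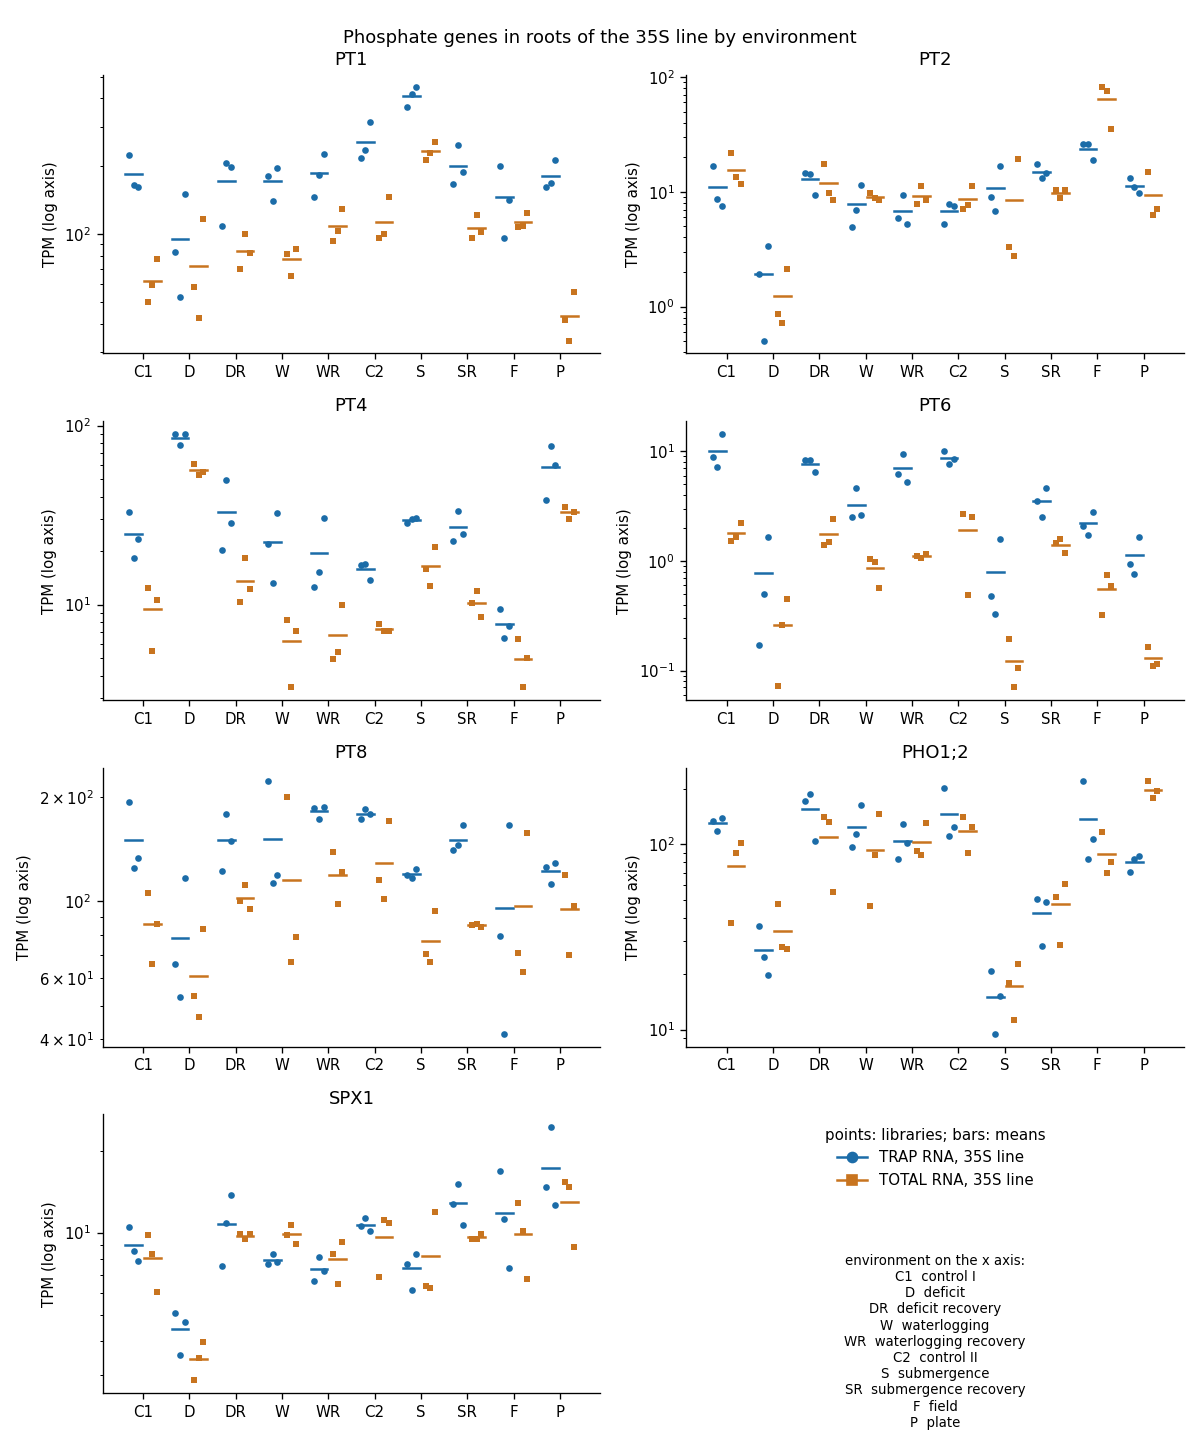
TPM (log axis) of the 7 phosphate genes in every library of the 35S line, by environment; circles are TRAP libraries, squares TOTAL libraries and bars means of 3. PT4 rises and PT2 falls in water deficit. PHO1;2 has its lowest means in submergence, with libraries at 9.47 to 22.5 TPM, a range that deficit TRAP libraries also reach.

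Tests were run on log2(TPM + 1), so a fold change understates the change of a gene with low values. A gene was called where limma's adjusted p (Benjamini-Hochberg over all genes tested) was under 0.05 and the log2 change was at least 1 in size. Statements that groups did not overlap only describe the libraries. Full separation of 3 against 3 libraries has p = 0.1 in an exact permutation test, and the share of all genes so separated was not computed. Under water deficit, PT4 rose and PT2 fell in most lines, while PHO1;2 was called as lower in both RNA pools of the 35S line, PT1 in its TRAP pool but not in TOTAL, and PT6 in the 35S and RSS1 lines. In bulk RNA, fewer cells of a type and less RNA per cell cannot be told apart. Of 53 tests of these genes in 8 line and RNA pool sets, 22 were called. Among all genes tested, the share called was 21.5% in 35S TOTAL, 14.4% in 35S TRAP, 14.5% in RSS1, 6.86% in SCR, 7.88% in CMZ, 4.26% in CASP, 14.8% in LSI1 and 13.3% in QHB.

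PT2, the low-affinity carrier, fell in 6 of 8 sets, and its deficit libraries lay below its control libraries in all 8. In 35S TRAP the 3 control I libraries held 16.7, 8.63 and 7.45 TPM and the 3 deficit libraries 1.91, 0.503 and 3.35 TPM. The lowest control library was above the highest deficit library, and the log2 change was -2.08 ± 0.35 (SE, adjusted p = 9.87e-05). In RSS1 the level went from 38.1, 38.7 and 23.0 TPM to 1.38, 2.92 and 2.60 TPM, the largest change of PT2 among the 8 sets (-3.37 ± 0.36, adjusted p = 5.56e-08). In 35S TOTAL it went from 21.8, 13.4 and 11.6 TPM to 0.853, 0.712 and 2.14 TPM (-2.90 ± 0.45, adjusted p = 1.43e-05). The log2 change was -2.54 ± 0.63 in SCR (adjusted p = 0.0157), -2.15 ± 0.49 in QHB (adjusted p = 0.0102) and -1.58 ± 0.55 in LSI1 (adjusted p = 0.0483). The call was lost in SCR without control I replicate 1 (adjusted p = 0.105) or deficit replicate 3 (0.0685), and in QHB without deficit replicate 2 (0.0519). In LSI1 it was lost without control I replicate 1 or 3 or deficit replicate 1 or 2 (adjusted p from 0.110 to 0.155), without the filter on low values (0.0564) and after median-ratio rescaling (0.0631). The change did not pass in CMZ (-2.23 ± 0.71, adjusted p = 0.0565), where it did without control I replicate 3 (0.0354), or in CASP (-1.13 ± 0.52, adjusted p = 0.281). The difference of the PT2 response between lines was not called (moderated F test, adjusted p = 0.357).

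PT4, an uptake carrier, moved the other way and rose in 7 of 8 sets. In 35S TRAP it went from 33.0, 18.1 and 23.1 TPM in control I to 89.8, 77.7 and 89.3 TPM in deficit (1.79 ± 0.33, adjusted p = 0.000238). In 35S TOTAL it went from 12.3, 5.49 and 10.6 TPM to 61.4, 52.6 and 55.3 TPM (2.52 ± 0.29, adjusted p = 1.92e-07). The groups did not overlap in either pool. The log2 change was 2.46 ± 0.40 in RSS1 (adjusted p = 4.42e-05), 2.05 ± 0.27 in LSI1 (adjusted p = 3.51e-05) and 2.20 ± 0.45 in QHB (adjusted p = 0.00538). In LSI1 the control level was the lowest of the 8 sets, at 4.74, 3.27 and 5.54 TPM, and the deficit level was 21.7, 23.8 and 19.3 TPM. Changes of 1.66 ± 0.46 in CMZ (adjusted p = 0.0258) and 1.63 ± 0.46 in SCR (adjusted p = 0.0346) rested on single libraries. The CMZ call was lost without control I replicate 1 or 2 or deficit replicate 2 or 3 (adjusted p from 0.0864 to 0.158), and the SCR call without any 1 of its 6 libraries (adjusted p from 0.0514 to 0.183). In CASP the deficit libraries spread from 13.0 to 136 TPM and the change did not pass (1.11 ± 0.70, adjusted p = 0.465). The response was not called as different between lines (adjusted p = 0.768).

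**Figure D2:**
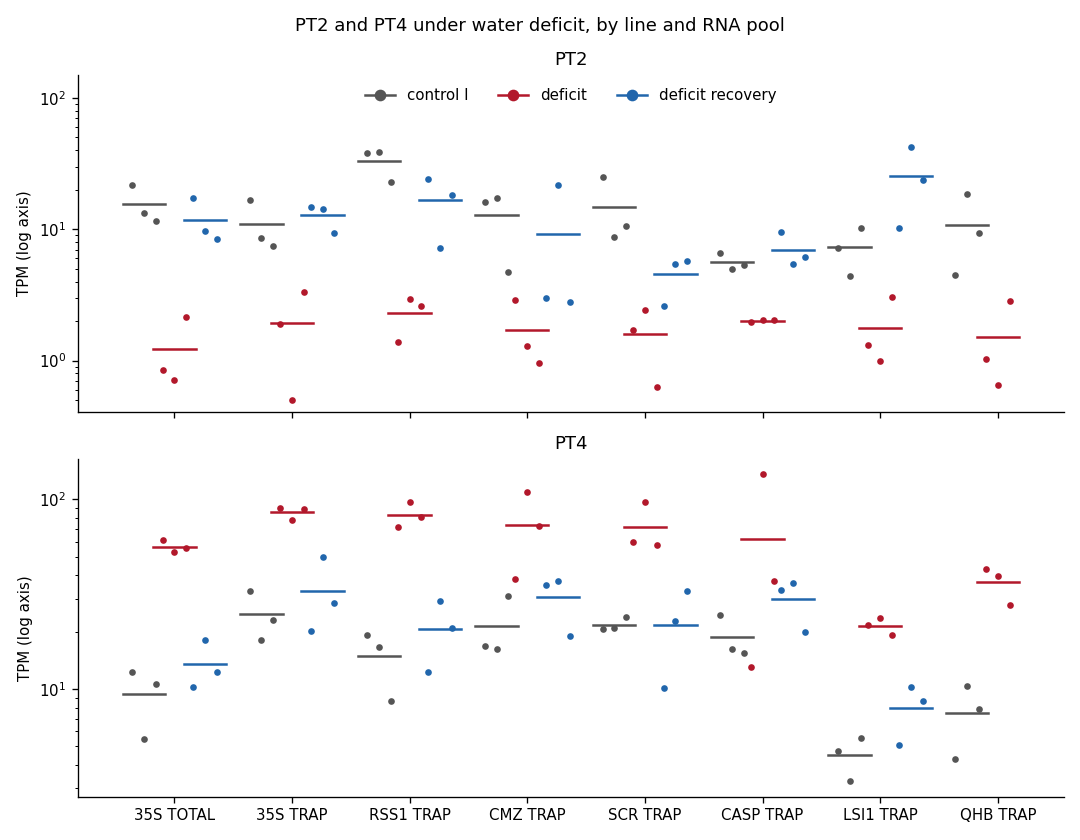
TPM (log axis) of PT2 and PT4 in control I, water deficit and deficit recovery for each set with deficit libraries; points are libraries and bars means of 3, and QHB has no recovery group. All deficit points of PT2 lie below the control points of their set, and those of PT4 lie above them except in CASP.

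PHO1;2, the xylem-loading exporter, fell in the 35S line. In 35S TRAP it went from 133, 118.5 and 138 TPM in control I to 36.1, 24.6 and 19.6 TPM in deficit, with no overlap (-2.28 ± 0.34, adjusted p = 1.74e-05). In 35S TOTAL the control libraries held 37.5, 90.3 and 101 TPM and the deficit libraries 47.6, 27.9 and 27.1 TPM. These groups overlapped, and the change of -1.06 ± 0.41 (adjusted p = 0.0440) was lost without control I replicate 2 or 3 or deficit replicate 2 or 3 (adjusted p from 0.131 to 0.183), and with only the groups compared in the fit (0.0606). In LSI1 PHO1;2 also fell, by less than the fold limit (-0.75, adjusted p = 0.0178). In RSS1 the level was 78.1, 81.7 and 70.3 TPM in control I and 137, 88.9 and 82.4 TPM in deficit (0.38, adjusted p = 0.403). The RSS1 response differed from that of 35S by 2.66 ± 0.56 on the log2 scale (adjusted p = 0.0104 for this 1 line), while the test over all 7 lines gave adjusted p = 0.0579. The other lines differed from 35S in the same direction, by 1.38 in SCR to 1.89 in QHB. None of these passed alone (limma adjusted p from 0.122 to 0.369).

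PT6, an uptake carrier, fell in both RNA pools of the 35S line, and PT1, also an uptake carrier, in TRAP alone of the 8 sets. PT6 went from 8.81, 7.27 and 14.4 TPM in 35S TRAP control I to 0.172, 0.501 and 1.66 TPM in deficit (-2.69 ± 0.31, adjusted p = 4.04e-07). It also fell in 35S TOTAL (-1.15 ± 0.23, adjusted p = 0.000374) and in RSS1 (-1.48 ± 0.42, adjusted p = 0.0131). The RSS1 call was lost without control I replicate 1 or 2 or deficit replicate 1 or 3 (adjusted p from 0.0551 to 0.0758). PT6 did not pass the filter of 1 TPM in 3 libraries in CASP, LSI1 and QHB and was not tested there. PT1 in 35S TRAP went from 224, 165.5 and 162.5 TPM to 83.2, 52.4 and 151 TPM (-1.06 ± 0.31, adjusted p = 0.0156). The highest deficit library was just under the lowest control library, and the call was lost without control I replicate 1 (adjusted p = 0.0766) or deficit replicate 2 (0.143), or with only the groups compared (0.0759), and was -0.99 after rescaling. In 35S TOTAL the PT1 groups overlapped (0.11 ± 0.26, adjusted p = 0.776). PT1 lay above control I without overlap in RSS1 (0.40 ± 0.23, adjusted p = 0.269) and CASP (0.59 ± 0.34, adjusted p = 0.424), neither of them called.

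PT8 and SPX1 changed most in the LSI1 line, whose promoter gene encodes a silicon influx carrier known from the exodermis and endodermis of rice roots. PT8, a high-affinity carrier, went there from 6.61, 8.49 and 6.31 TPM in control I to 25.9, 20.8 and 18.7 TPM in deficit (1.48 ± 0.22, adjusted p = 0.000123). In 35S TRAP it went the other way, from 194, 125 and 133 TPM to 65.9, 53.0 and 117 TPM, a change just under the fold limit (-0.98 ± 0.34, adjusted p = 0.0343). The PT8 response differed between lines (adjusted p = 0.0195), and LSI1 differed from 35S by 2.47 ± 0.50 (adjusted p = 0.00356). The call over all lines was lost without LSI1 control I replicate 1 (adjusted p = 0.0538), control I replicate 3 (0.0532) or deficit replicate 1 (0.0629). SPX1 in LSI1 fell from 41.6, 40.4 and 39.8 TPM to 19.5, 8.09 and 26.1 TPM (-1.28 ± 0.28, adjusted p = 0.00322), and without deficit replicate 2 the change was -0.82. In 35S TOTAL it fell from 9.81, 8.36 and 6.03 TPM to 2.86, 3.46 and 3.97 TPM (-1.02 ± 0.25, adjusted p = 0.00200). Without control I replicate 1 or 2 or deficit replicate 1 that change was between -0.98 and -0.88, under the fold limit. In 35S TRAP it was -0.88 ± 0.24 (adjusted p = 0.00970), also under the limit. The PT6 response was also called as different between lines (adjusted p = 0.0489), and with a pseudocount of 0.1 it was not (0.157). That call was lost without any 1 library of LSI1, any control I library of CASP or SCR, any deficit library of QHB or RSS1, control I replicate 2 or 3 of CMZ or QHB, control I replicate 1 or 2 of RSS1, deficit replicate 1 or 2 of SCR, any control I library of 35S, or deficit replicate 1 or 2 of 35S (adjusted p from 0.0511 to 0.126). In CASP, LSI1 and QHB the low level of PT6 left little room for a fall. The test cannot tell that limit from a different response.

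After 1 day of renewed irrigation, most of the genes called under deficit were called in the opposite direction, and the others are given below. QHB, where PT2 and PT4 were called, had no recovery group. The same deficit libraries enter both comparisons, so an opposite direction is favoured in advance for genes called under deficit. Recovery was compared with the stress in 17 sets, with 115 tests of these genes and 25 calls. For recovery from deficit, the share of all genes called was 18.9% in 35S TOTAL, 14% in 35S TRAP, 11.5% in RSS1, 5.93% in SCR, 8.3% in CMZ, 3.73% in CASP and 15% in LSI1. PT2 in 35S TRAP returned to 14.7, 14.4 and 9.44 TPM, above all deficit libraries (2.35 ± 0.35, adjusted p = 2.44e-05). It also rose in 35S TOTAL (2.52 ± 0.45), RSS1 (2.30 ± 0.36) and LSI1 (3.11 ± 0.55, adjusted p = 0.000607). In LSI1 the recovered level of 10.2, 42.0 and 23.8 TPM reached above the control range of 4.40 to 10.3 TPM, a difference from the control that was not called. PT4 fell in 35S TRAP to 20.2, 49.9 and 28.4 TPM (-1.45 ± 0.33, adjusted p = 0.00209) and also in 35S TOTAL (-2.01 ± 0.29), RSS1 (-2.01 ± 0.40), LSI1 (-1.37 ± 0.27) and SCR (-1.77 ± 0.46, adjusted p = 0.0236). The SCR call was lost without deficit replicate 2 (adjusted p = 0.138) or recovery replicate 1 (0.145) or 2 (0.0501), and with only the groups compared (0.0531).

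PHO1;2 rose in 35S TRAP to 172, 188 and 104 TPM in deficit recovery (2.48 ± 0.34, adjusted p = 5.87e-06) and in 35S TOTAL (1.58 ± 0.41, adjusted p = 0.00427). PT6 rose to 8.38, 8.26 and 6.54 TPM in 35S TRAP (2.38 ± 0.31, adjusted p = 2.91e-06) and in 35S TOTAL (1.13 ± 0.23), where the change was 0.96 without recovery replicate 3. SPX1 rose in 35S TOTAL (1.29 ± 0.25, adjusted p = 0.000240), in 35S TRAP (1.09 ± 0.24, adjusted p = 0.00182) and in LSI1 (1.34 ± 0.28, adjusted p = 0.00215). The 35S TRAP change was 0.96 without deficit replicate 2 and 0.90 without recovery replicate 3, and the LSI1 change was 0.89 without deficit replicate 2 and did not pass with only the groups compared (adjusted p = 0.0532). PT1 in 35S TRAP (0.91 ± 0.31, adjusted p = 0.0362) and PT8 in LSI1 (-0.84 ± 0.22, adjusted p = 0.0104), both called under deficit, were under the fold limit in recovery. The recovery of 3 other deficit calls did not pass: PT6 in RSS1 (1.20 ± 0.42, adjusted p = 0.0560), PT4 in CMZ (-1.17 ± 0.46, adjusted p = 0.134) and PT2 in SCR (1.12 ± 0.63, adjusted p = 0.370).

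Against control I, 0 of these genes were called after recovery from deficit in any of the 7 sets. Over all 17 recovery sets against the control, 18 of 115 tests had an unadjusted p under 0.05 and 3 were called by limma, all after submergence. Of all genes tested, the share called in deficit recovery against control I was 0.189% in 35S TOTAL, 0.148% in 35S TRAP, 0.416% in RSS1, 0.0146% in SCR, 0.0109% in CMZ, 0% in CASP and 0.648% in LSI1.

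In waterlogging, in which the shoot stayed above water, 0 of 47 tests in 7 sets were called by limma and 7 had an unadjusted p under 0.05. Over all genes, the share called was 0.838% in 35S TOTAL, 0.171% in 35S TRAP, 0.507% in RSS1, 0.00364% in SCR, 0.0507% in CMZ, 0.0259% in CASP and 1.55% in LSI1. PT6 in 35S TRAP went from 8.81, 7.27 and 14.4 TPM to 2.50, 4.65 and 2.62 TPM, with no overlap (-1.38 ± 0.31, adjusted p = 0.0649). Libraries with the same replicate number deviated together in this comparison, and with the replicate number as a block the adjusted p was 0.05, just under the threshold, and the change was called. PT4 was below control I without overlap in 4 of 7 sets, with changes of -1.24 in RSS1 (adjusted p = 0.287), -1.15 in CMZ (0.674), -1.12 in SCR (0.999) and -0.53 in LSI1 (0.363). None of these was called, and how often other genes separate in this way was not computed. In waterlogging recovery against waterlogging, 0 of these genes were called. The share of all genes called there was 0.8% in 35S TOTAL, 0.038% in 35S TRAP, 0.504% in RSS1, 0% in SCR, 0.0217% in CMZ, 0.0296% in CASP and 0.28% in LSI1. In waterlogging recovery against control I, with 0 of these genes called, it was 0.2% in 35S TOTAL, 0% in 35S TRAP, 0.394% in RSS1, 0.00364% in SCR, 0% in CMZ, 0% in CASP and 0% in LSI1.

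Submergence lowered the exporter PHO1;2 and the carrier PT6 in all 3 sets tested, and PT1 was higher in each. Of 21 tests 10 were called. Of all genes tested, the share called was 35.9% in 35S TOTAL, 20.1% in 35S TRAP and 38.3% in RSS1, so the members' share is to be read against a large background. PHO1;2 in 35S TRAP went from 202.5, 111 and 125 TPM in control II to 20.6, 9.47 and 15.1 TPM (-3.21 ± 0.34, adjusted p = 1.04e-07). In 35S TOTAL it went from 141, 89.3 and 124 TPM to 17.9, 11.3 and 22.5 TPM (-2.73 ± 0.41, adjusted p = 4.22e-06). The change was smaller in RSS1, from 71.9, 49.4 and 76.1 TPM to 33.2, 19.5 and 17.5 TPM (-1.48 ± 0.28, adjusted p = 8.93e-05). The 35S TRAP and RSS1 responses of PHO1;2 differed (adjusted p = 0.0288). That call was lost without 35S control II replicate 1 (adjusted p = 0.0764), RSS1 control II replicate 2 (0.0804), or 35S submergence replicate 2 (0.0726) or 3 (0.0509).

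PT6 fell under submergence by -2.50 ± 0.31 in 35S TRAP (adjusted p = 9.72e-07), from 10.1, 7.69 and 8.47 TPM to 0.475, 0.331 and 1.58 TPM. The change was -1.26 ± 0.23 in 35S TOTAL (adjusted p = 6.74e-05) and -1.38 ± 0.42 in RSS1 (adjusted p = 0.00822). With only control II and submergence in the 35S TOTAL fit, PT6 did not reach the filter on low values and was not tested.

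PT1, the uptake carrier with the highest levels under water, rose in 35S TOTAL from 95.6, 99.6 and 146 TPM to 214, 229 and 256 TPM (1.05 ± 0.26, adjusted p = 0.00146). Without control II replicate 1 or 2 or submergence replicate 3 the change was between 0.94 and 0.98, under the fold limit. In RSS1 it went from 128, 139 and 167 TPM to 420, 362 and 226 TPM (1.17 ± 0.23, adjusted p = 0.000158), and was 0.99 without submergence replicate 1. In 35S TRAP the 3 submerged libraries (365.5, 417.5 and 447 TPM) lay above control II (218, 237 and 314 TPM), but the change of 0.69 ± 0.31 did not pass (adjusted p = 0.0943). Against control I in its place it was 1.16 and passed (adjusted p = 0.00527).

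PT4 was higher without overlap in all 3 submerged sets and was called in 35S TOTAL (1.05 ± 0.29, adjusted p = 0.00368), where it was 0.78 against control I and 0.87 without submergence replicate 3. PT2 fell in RSS1 from 17.6, 15.2 and 14.7 TPM to 6.04, 4.47 and 10.6 TPM (-1.13 ± 0.36, adjusted p = 0.0117), and not without submergence replicate 2 (adjusted p = 0.0711). In 35S TOTAL the PT2 change of -0.46 did not pass (adjusted p = 0.400). It did without submergence replicate 3 (-1.24, adjusted p = 0.00686) and against control I (-1.22, 0.0224). In 35S TRAP PT2 held 5.27, 7.81 and 7.50 TPM in control II and 8.99, 6.84 and 16.8 TPM in submergence. The PT2 responses of 35S TRAP and RSS1 differed (adjusted p = 0.0415), a call lost with a pseudocount of 0.1 (0.0516) and without any 1 library other than RSS1 submergence replicate 3 and 35S submergence replicate 2 (adjusted p from 0.0502 to 0.105). PT8 and SPX1 were not called in submergence. In RSS1 the PT8 change was -0.75 (limma adjusted p = 0.0974), and it passed without submergence replicate 3 (-1.29, adjusted p = 0.00365). In 35S TRAP, PT8 went from 173, 184 and 178 TPM to 119, 117 and 124 TPM and SPX1 from 10.6, 11.3 and 10.1 TPM to 7.70, 6.15 and 8.32 TPM. The shoot list summed to 60.8 to 109 TPM in submerged 35S TRAP roots, against 25.3 to 40.9 TPM in control II; its part in these results was not tested.

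A day after submergence, PT1, PT6 and PHO1;2 had moved back in all 3 sets, and no other of these genes was called. Here too the same stress libraries enter both comparisons, which favours an opposite direction. Over all genes, the share called against submergence was 26.3% in 35S TOTAL, 16.3% in 35S TRAP and 29.5% in RSS1. PHO1;2 rose by 1.46 ± 0.34 in 35S TRAP, to 50.8, 28.2 and 48.9 TPM, by 1.39 ± 0.41 in 35S TOTAL and by 1.96 ± 0.28 in RSS1. PT6 rose by 1.38 ± 0.31, 1.10 ± 0.23 and 1.72 ± 0.42 in the same order. PT1 fell by 1.04, 1.13 and 1.02 on the log2 scale in the same order. The PT1 call in 35S TRAP was lost without recovery replicate 1 (adjusted p = 0.0657), and the change came under the fold limit without submergence replicate 3 (-0.97) or recovery replicate 3. In RSS1 it was -0.83 without submergence replicate 1 and -0.94 without submergence replicate 2 or recovery replicate 1.

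PHO1;2 had not returned to its control level in the 35S line. Against control II it was lower in 35S TRAP (-1.75 ± 0.34, adjusted p = 0.00397) and in 35S TOTAL (-1.34 ± 0.41, adjusted p = 0.0312). The 35S TOTAL call was lost without control II replicate 1 or 3 or recovery replicate 1 or 2 (adjusted p from 0.0586 to 0.185). PT6 in 35S TRAP was also lower (-1.12 ± 0.31, adjusted p = 0.0453), a call lost without any 1 of control II replicates 1 to 3 or recovery replicates 1 and 2 (adjusted p from 0.0852 to 0.211) or with a pseudocount of 0.1 (0.180). The share of all genes called against control II was 7.59% in 35S TOTAL, 2.16% in 35S TRAP and 7.88% in RSS1, where PHO1;2 held 84.7, 71.0 and 124 TPM and was not called.

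In field roots of the 35S line PT2 was higher than in control I in both RNA pools, and PT4 and PT6 were called as lower in TRAP alone. Of 33 tests in 5 sets 6 were called. Of all genes tested, the share called was 7% in 35S TOTAL, 7.6% in 35S TRAP, 10.5% in RSS1, 6.39% in LSI1 and 3.51% in QHB. PT4 in 35S TRAP went from 33.0, 18.1 and 23.1 TPM to 9.38, 6.50 and 7.60 TPM (-1.52 ± 0.33, adjusted p = 0.00299). It also fell in RSS1, to 5.03, 1.21 and 6.53 TPM (-1.71 ± 0.40, adjusted p = 0.00548), but not without field replicate 2 (adjusted p = 0.0568) or with only the groups compared (0.112). In LSI1 it was lower without overlap and just under the fold limit (-0.97 ± 0.27, adjusted p = 0.0289). PT6 in 35S TRAP fell to 2.10, 1.74 and 2.81 TPM (-1.76 ± 0.31, adjusted p = 0.000402). In 35S TOTAL the PT4 groups overlapped (-0.77 ± 0.29, adjusted p = 0.0748), with a call without control I replicate 2 (-1.08, adjusted p = 0.0220), and PT6 was under the fold limit (-0.85 ± 0.23, adjusted p = 0.0168). PT1 in 35S TOTAL was above control I without overlap and also under that limit (0.88 ± 0.26, adjusted p = 0.0261), with 1.04 without control I replicate 3. PT2 rose in 35S TOTAL to 81.0, 75.3 and 35.5 TPM (1.93 ± 0.45, adjusted p = 0.00579), though not with only the groups compared (0.0582). In 35S TRAP it rose to 26.2, 26.0 and 18.7 TPM (1.11 ± 0.35, adjusted p = 0.0369), a call lost without control I replicate 2 or 3 or field replicate 1 or 2 (adjusted p from 0.0959 to 0.167), with a pseudocount of 0.1 (0.0849) and with only the groups compared (0.125). PHO1;2 rose in RSS1, to 197, 166 and 138 TPM (1.10 ± 0.28, adjusted p = 0.00912), and by 0.97 without field replicate 1. PT8 did not pass in 35S TRAP (-0.84, limma adjusted p = 0.0964) or RSS1 (-0.97, 0.0818). Without field replicate 3 it did, in 35S TRAP (-1.35, adjusted p = 0.00386) and in RSS1 (-1.23, 0.0405). LSI1 and QHB had 0 calls by limma, with 2 and 4 unadjusted p under 0.05.

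The 6 plate sets gave 14 calls in 41 tests. Over all genes, the share called was 22.2% in 35S TOTAL, 20.4% in 35S TRAP, 11.9% in RSS1, 7.9% in SCR, 12.3% in CMZ and 7.75% in QHB. PT4 was higher and PT6 lower on plates in 35S TOTAL, 35S TRAP and RSS1. PT4 in 35S TOTAL held 35.3, 29.9 and 33.0 TPM on plates (1.75 ± 0.29, adjusted p = 4.92e-05), and in RSS1 54.8, 68.9 and 70.5 TPM (2.11 ± 0.40, adjusted p = 0.000525). In 35S TRAP it held 38.4, 76.5 and 60.3 TPM (1.19 ± 0.33, adjusted p = 0.00667), with a change just under the fold limit without control I replicate 2 and of 0.97 without plate replicate 2. PT6 changed by -1.30 ± 0.23, -2.37 ± 0.31 and -1.69 ± 0.42 in 35S TOTAL, 35S TRAP and RSS1 (adjusted p = 0.000118, 2.04e-06 and 0.00581). PHO1;2 rose in 35S TOTAL to 221, 178 and 194 TPM (1.48 ± 0.41, adjusted p = 0.00543), which was lost without control I replicate 1 (adjusted p = 0.0581).

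In the other plate sets it was PT1, PT2 and PT8 that fell. PT1 in CMZ went from 78.5, 100 and 72.4 TPM in control I to 30.9, 41.6, 21.8 and 16.2 TPM (-1.64 ± 0.34, adjusted p = 0.00204), and PT8 from 111, 110 and 92.9 TPM to 39.3, 52.7, 35.3 and 31.1 TPM (-1.40 ± 0.29, adjusted p = 0.00215). In QHB, PT2 went from 4.52, 18.6 and 9.36 TPM to 0.582, 0.619 and 0.494 TPM (-2.73 ± 0.49, adjusted p = 0.00498). PT1 fell in SCR (-1.67 ± 0.41, adjusted p = 0.0138), lost without control I replicate 3 (0.0700) or plate replicate 3 (0.0674). It fell in QHB (-1.57 ± 0.37, adjusted p = 0.0189), lost without control I replicate 1 or 2 or plate replicate 1 or 3 (adjusted p from 0.0553 to 0.0894). PT2 in SCR (-2.34 ± 0.63, adjusted p = 0.0245) was lost without control I replicate 1 or 3 or plate replicate 2 or 3 (adjusted p from 0.0523 to 0.128). PHO1;2 in QHB (-1.06 ± 0.31, adjusted p = 0.0467) was lost without control I replicate 2 or 3 or any plate replicate (adjusted p from 0.0833 to 0.172).

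Between the 2 greenhouse controls limma called 0 of 21 tests, and 3 had an unadjusted p under 0.05. With 3 libraries in a group, this does not show that the controls are alike. Without overlap, PT1 was higher in control II in 2 of 3 sets, PT2 lower in 2 and PT4 lower in 1. How often other genes separate in this way was not computed. The share of all genes called was 0% in 35S TOTAL, 0.019% in 35S TRAP and 0.00365% in RSS1. PT1 was at 62.2 ± 14.0 TPM in 35S TOTAL control I and 114 ± 27.7 TPM in control II, a change of 0.86 (adjusted p = 0.158).

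Between lines, 47 of 126 tests were called against the 35S TRAP line of the same environment. The median of all genes lay above 0 in each of these comparisons, by up to 0.32 on the log2 scale (QHB on plates) and by 0.28 in LSI1 control I. A change is to be read relative to that shift. In control I the share of all genes called was 14.9% in RSS1, 29.5% in SCR, 27% in CMZ, 28.4% in CASP, 17.8% in LSI1 and 25% in QHB. PT1 was lower than in 35S TRAP (224, 165.5 and 162.5 TPM) in CMZ, SCR, CASP, LSI1 and QHB, and just under the fold limit in RSS1 (-0.98 ± 0.26, adjusted p = 0.0128). The largest difference was in QHB, a promoter known from the quiescent centre of the root tip, at 34.8, 34.4 and 19.3 TPM (-2.63 ± 0.26, adjusted p = 2.06e-07). It was -1.88 ± 0.26 in CASP, -1.54 ± 0.26 in LSI1, -1.40 ± 0.26 in SCR and -1.13 ± 0.26 in CMZ, the last with -0.98 without 35S control I replicate 1. PT6 was lower in all 6 lines, by -3.24 ± 0.38 in LSI1 to -1.31 ± 0.38 in RSS1. The RSS1 call was lost without RSS1 replicate 3 (adjusted p = 0.140) or 35S replicate 3 (0.124), and with a pseudocount of 0.1 (0.149). The 35S libraries are by themselves enough to bring PT6 past the filter of this fit. In the fits of RSS1, CMZ and SCR, which hold no 35S library, PT6 also passed the filter. In the fits of CASP, LSI1 and QHB alone PT6 did not pass it. The PT6 differences of those lines set values near the floor against a high 35S group and mostly reflect the 35S level. PT2 was called only as higher in RSS1, at 38.1, 38.7 and 23.0 TPM (1.56 ± 0.51, adjusted p = 0.0402), lost without RSS1 replicate 1 or 2 or 35S replicate 2 or 3 (adjusted p from 0.122 to 0.165).

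The LSI1 line stood furthest from 35S, with 6 of the 7 genes called in control I, among them PT6 with the limit just given. PT8 was at 6.61, 8.49 and 6.31 TPM against 194, 125 and 133 TPM in 35S TRAP (-4.20 ± 0.34, adjusted p = 2.13e-08). PHO1;2 was at 7.91, 11.9 and 10.4 TPM against 133, 118.5 and 138 TPM (-3.57 ± 0.45, adjusted p = 5.44e-06). SPX1 was the reverse, at 41.6, 40.4 and 39.8 TPM against 10.48, 8.55 and 7.88 TPM (2.07 ± 0.33, adjusted p = 8.52e-05). No library of the LSI1 line overlapped the 35S libraries for these genes. PT4 was lower in LSI1 (-2.20 ± 0.37, adjusted p = 0.000175) and in QHB (-1.63 ± 0.37, adjusted p = 0.00217). PT8 was lower in QHB (-2.24 ± 0.34, adjusted p = 3.11e-05) and in CASP (-1.15 ± 0.34, adjusted p = 0.0123), the latter lost without 35S control I replicate 1 (0.0654). PHO1;2 was higher in SCR (1.29 ± 0.45, adjusted p = 0.0313), where replicate 1 held 594.5 TPM and the others 230 and 233 TPM. That call was lost without SCR replicate 1 or any 35S replicate (adjusted p from 0.0611 to 0.193), and after rescaling (0.0771).

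In the field the LSI1 pattern was present again in other libraries. Of all genes tested, the share called against 35S was 7.73% in RSS1, 16.3% in LSI1, 9.32% in QHB, 13.5% in EXP5B, 9.28% in HMA5, 3.86% in NRAMP5 and 12.1% in SHR1. PHO1;2 was at 6.52, 6.55 and 5.85 TPM in LSI1 against 219, 83.1 and 106 TPM in 35S (-4.11 ± 0.35, adjusted p = 4.23e-08). PT8 was at 5.55, 6.29 and 3.84 TPM against 79.5, 41.4 and 166 TPM (-3.76 ± 0.58, adjusted p = 6.38e-05), and PT1 differed by -1.85 ± 0.44 (adjusted p = 0.00444). SPX1 was higher in LSI1 (1.41 ± 0.43, adjusted p = 0.0254), lost without any LSI1 replicate or 35S replicate 2 or 3 (adjusted p from 0.0567 to 0.134) and after rescaling (0.0595). In NRAMP5 field roots PT1 was at 27.1, 13.6 and 38.6 TPM (-2.48 ± 0.44, adjusted p = 0.00365). PT8 was at 11.4, 9.18 and 23.8 TPM there (-2.50 ± 0.58, adjusted p = 0.0181), lost without NRAMP5 replicate 1 or 2 or 35S replicate 1 or 3 (adjusted p from 0.0507 to 0.101). PT1 in QHB (-1.42 ± 0.44, adjusted p = 0.0426) was lost without QHB replicate 2 or 3 or 35S replicate 1 or 3 (adjusted p from 0.0940 to 0.212) and with only the groups compared (0.0604). PT2 in SHR1 held 84.0, 64.5 and 51.4 TPM (1.44 ± 0.46, adjusted p = 0.0408), lost without SHR1 replicate 1 or 2 or any 35S replicate (adjusted p from 0.0755 to 0.123) and after rescaling (0.0678). RSS1, EXP5B and HMA5 had 0 calls by limma in the field, with 0, 1 and 1 unadjusted p under 0.05.

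**Figure D3:**
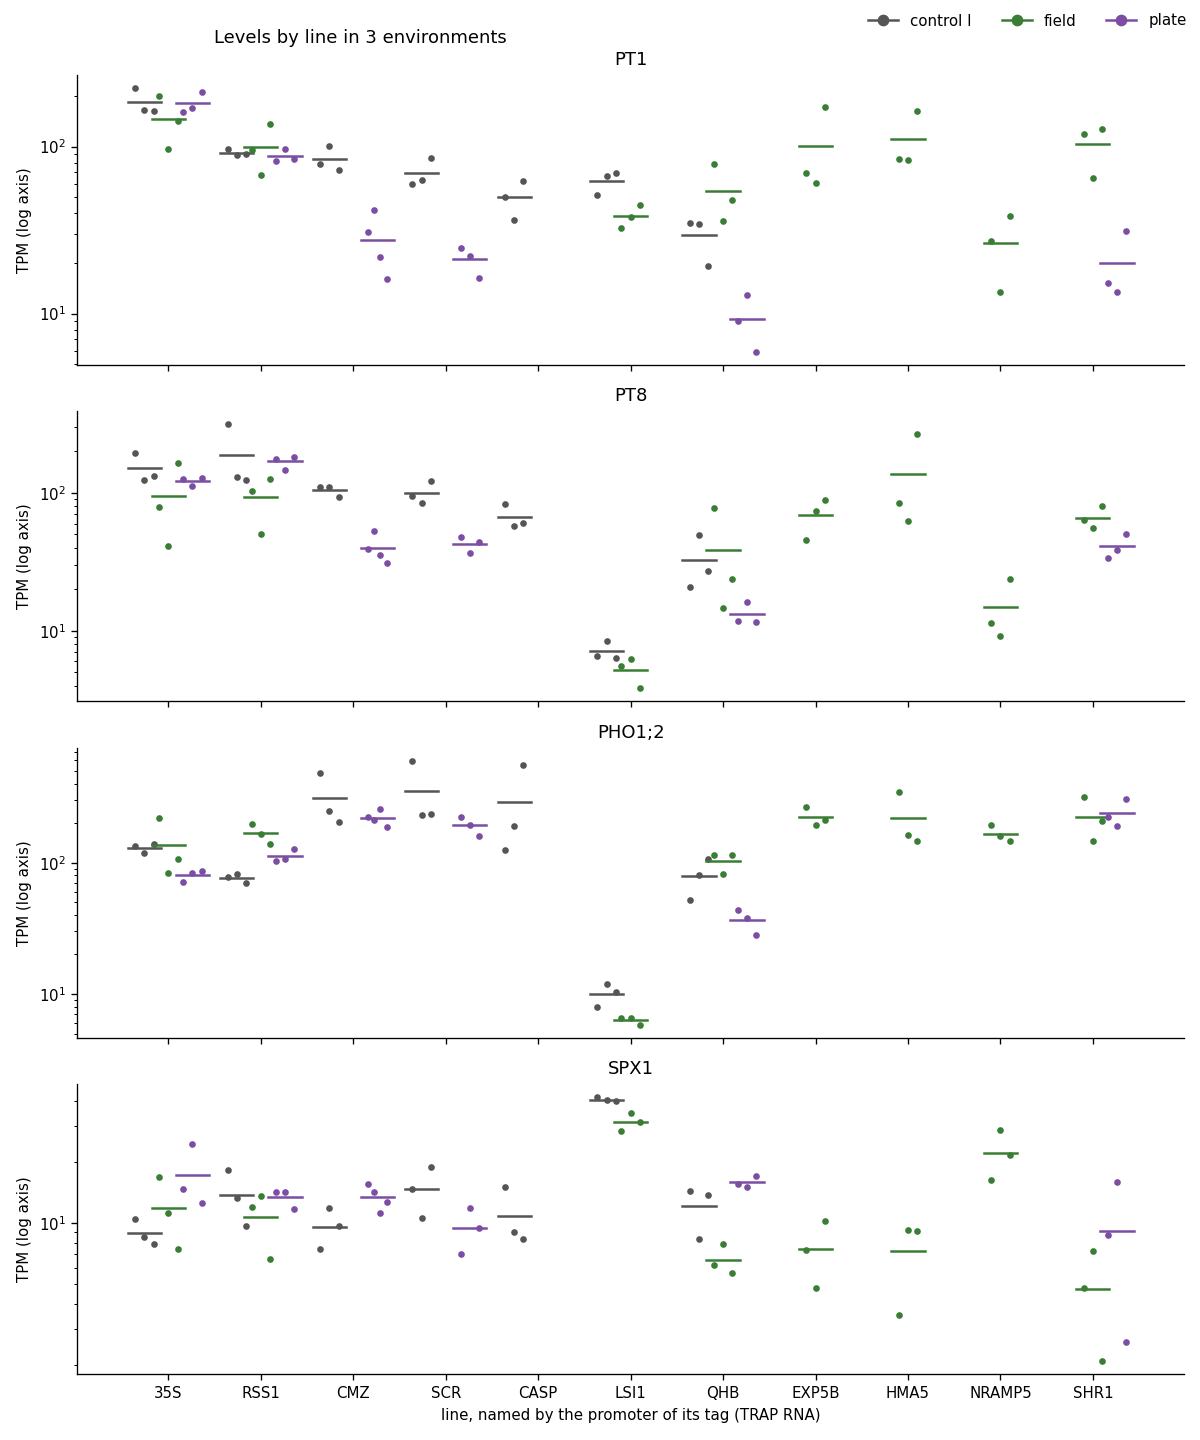
TPM (log axis) of PT1, PT8, PHO1;2 and SPX1 in TRAP libraries of each line in control I, field and plate; points are libraries and bars means of 3, or 4 for CMZ on plates, and lines without a group have no points. In LSI1, PT8 and PHO1;2 lie at 3.84 to 11.9 TPM and SPX1 at 28.4 to 41.6 TPM in both environments it has.

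On plates the share of all genes called against 35S was 16.9% in RSS1, 42.7% in SCR, 43.2% in CMZ, 37% in QHB and 42.3% in SHR1. The 35S plate libraries were also those with the high shoot list given above, against 36.3 to 301 TPM in the other plate lines; its part in these differences was not tested. PT1 was lower than in 35S (162, 169 and 212 TPM) in all 5 lines, most in QHB at 9.09, 12.9 and 5.92 TPM (-4.19 ± 0.33, adjusted p = 2.42e-09). The difference was -3.20 ± 0.33 in SHR1, -3.05 ± 0.33 in SCR and -2.74 ± 0.31 in CMZ. In RSS1 it was -1.04 ± 0.33 (adjusted p = 0.0300), lost without any 1 of its 6 libraries (adjusted p from 0.0535 to 0.114). PT8 was lower in QHB (-3.13 ± 0.22), CMZ (-1.62 ± 0.20), SHR1 (-1.57 ± 0.22) and SCR (-1.49 ± 0.22). PT2 was lower in QHB (-2.96 ± 0.51), SCR (-2.11 ± 0.51) and CMZ (-1.66 ± 0.48). PT4 was lower in QHB (-2.13 ± 0.37, adjusted p = 7.53e-05) and in CMZ (-1.04 ± 0.35, adjusted p = 0.0162), where the groups overlapped. The CMZ call was lost without CMZ replicate 1 (-0.95) or 2 (-0.92) or 35S replicate 2 (adjusted p = 0.0975) or 3 (0.0524).

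PHO1;2 differed in direction between the plate lines. It was higher than in 35S (70.8, 82.8 and 86.7 TPM) in SHR1 at 221, 191 and 305 TPM (1.54 ± 0.20, adjusted p = 2.38e-06), in CMZ (1.43 ± 0.19, adjusted p = 2.25e-06) and in SCR (1.24 ± 0.20, adjusted p = 3.22e-05). After median-ratio rescaling of the libraries, the CMZ and SCR differences were 0.99 and 0.84. It was lower in QHB, at 43.3, 37.8 and 28.4 TPM (-1.13 ± 0.20, adjusted p = 0.000100), and -0.96 without QHB replicate 3. SPX1 was lower in SHR1 (-1.07 ± 0.41, adjusted p = 0.0358), with overlap, and not without SHR1 replicate 3 (adjusted p = 0.280) or 35S replicate 1 (0.0577) or 2 (0.168), or with only the groups compared (0.144).

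The ribosome-bound pool of the 35S line held more PT1, PT4 and PT6 than its TOTAL pool. Of 70 tests in 10 environments 18 were called. Over all genes, the share called was 22.2% in control I, 19.3% in control II, 6.85% in deficit, 16.3% in deficit recovery, 22.5% in waterlogging, 16.9% in waterlogging recovery, 11.1% in submergence, 10.6% in submergence recovery, 16.8% in the field and 28.8% on plates. PT6 was higher in TRAP in 6 environments. In control I it was at 8.81, 7.27 and 14.4 TPM against 1.51, 1.65 and 2.20 TPM (1.96 ± 0.27, adjusted p = 2.30e-07), and the other 5 differences ran from 1.05 to 1.88. The differences in waterlogging (0.95 without TRAP replicate 2) and in the field (0.94 without TOTAL replicate 1, 0.92 without TRAP replicate 3) came under the fold limit without single libraries. PT4 was higher in TRAP in 6 environments, by 1.01 in control II to 1.67 in waterlogging. In control I it was at 33.0, 18.1 and 23.1 TPM against 12.3, 5.49 and 10.6 TPM (1.32 ± 0.32, adjusted p = 0.000781). The PT4 difference came under the fold limit without single libraries in control II (0.96 to 0.99 without TOTAL replicate 2 or 3 or TRAP replicate 1 or 2), in deficit recovery (0.81 without TRAP replicate 2, 0.99 without TOTAL replicate 1) and in waterlogging recovery (0.99 without TRAP replicate 3).

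PT1 was higher in TRAP in control I (1.56 ± 0.29, adjusted p = 3.74e-05), control II (1.18 ± 0.29), waterlogging (1.13 ± 0.29) and on plates, where it was at 162, 169 and 212 TPM against 41.8, 33.6 and 55.2 TPM (2.05 ± 0.29, adjusted p = 1.35e-07). PT2 was lower in TRAP in the field (-1.33 ± 0.42, adjusted p = 0.0115), lost without TOTAL field replicate 1 (0.0690) or 2 (0.0522) and with only the groups compared (0.0560). PHO1;2 was lower in TRAP on plates, at 70.8, 82.8 and 86.7 TPM against 221, 178 and 194 TPM (-1.29 ± 0.39, adjusted p = 0.00511). On plates the shoot list was also higher in TRAP than in TOTAL, as given above; its part was not tested. In deficit and in submergence 0 of these genes were called between the pools, with 0 and 3 unadjusted p under 0.05. Same-numbered TRAP and TOTAL libraries deviated together in all 10 environments, and the replicate block changed none of these calls.

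In the tests of responses that differ between lines, 4 calls were made, those of PT6 and PT8 in deficit and of PT2 and PHO1;2 in submergence given above. For PT6, near the floor in several lines, these tests cannot tell a different response from a low level. The share of all genes called was 5.18% for deficit, 0.0756% for waterlogging, 4.38% for the field and 13.9% for submergence. In the field test PT6 (adjusted p = 0.0522) and PHO1;2 (adjusted p = 0.0643) did not pass. PT6 passed without the filter on low values (0.0495), after rescaling (0.0443) and without QHB control I replicate 1, RSS1 control I replicate 3 or RSS1 field replicate 1 (adjusted p from 0.0347 to 0.0361), and PHO1;2 without 35S field replicate 1 (0.0222).

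Among themselves the genes followed different patterns over the 62 RNA group means of log2(TPM + 1). The values are descriptions, since groups share lines and environments. PT1 and PT8 had r = 0.529 and PHO1;2 and PT8 r = 0.571. SPX1 ran against PT8 (r = -0.632) and PHO1;2 (r = -0.557), and PT2 against PT4 (r = -0.504). The low PT8 and PHO1;2 and high SPX1 of the LSI1 groups enter these values.

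For 5 of the 7 genes, the gene with the most similar pattern among 26331 was a gene model with a nearby locus number. They were OS03G0150901 for PT2 (r = 0.998), OS04G0186450 for PT4 (r = 0.995), OS10G0444850 for PT8 (r = 0.999), OS02G0809700 for PHO1;2 (r = 0.992) and OS06G0603800 for SPX1 (r = 0.950). The first 3 are described in the files as hypothetical genes, the PHO1;2 partner as a gene of Pi homeostasis and the SPX1 partner as a hypothetical protein. PHO1;2 is known in rice to have a natural antisense transcript. The sources used here do not say whether the counting used strand, and without it reads of overlapping models cannot be told apart. Over 187 libraries, the TPM ratio of the model to the gene had a median of 1.10 for PT2 (0.0700 to 1.18), 1.79 for PT4 (0.766 to 2.25) and 1.63 for PT8 (1.26 to 1.97). It had a median of 0.789 for PHO1;2 (0.142 to 1.17) and 1.43 for SPX1 (0.285 to 2.73). Reads of the related PHT1 coding sequences could also be divided among them by the counting.

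**Figure D4:**
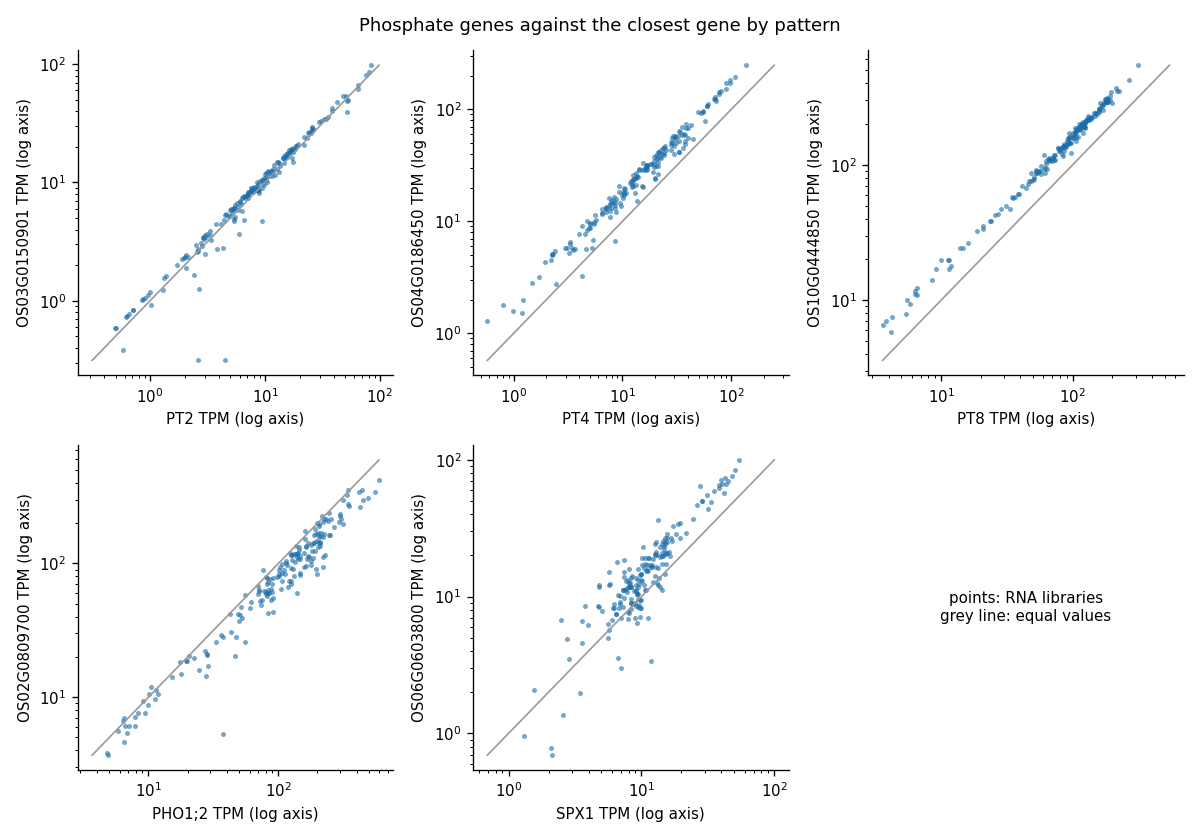
TPM of 5 phosphate genes against TPM of the gene closest in pattern, both on log axes, with 1 point for each of 187 RNA libraries and a grey line of equal values. The ratio of the neighbour's TPM to the gene's spans 1.26 to 1.97 for PT8 and 0.766 to 2.25 for PT4, and 0.07 to 1.18 for PT2, whose points reach furthest below the line.

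The other most similar genes were further off. For PT1 they were OS01G0213400, a zinc finger protein of the RING/FYVE/PHD type, and OS06G0288100, similar to a receptor-like protein kinase (r = 0.893 for both), and OS04G0531400, similar to a lectin-like receptor kinase (r = 0.885). For PT6 they were OS04G0589400 (r = 0.776), OS04G0589350 (r = 0.756) and OS01G0234300, similar to pectinesterase (r = 0.751). PT8 was followed by OS07G0589200, a protein with a GRAS transcription factor domain (r = 0.922), and PHO1;2 by OS06G0665500, a protein with a peptidase M20 domain (r = 0.899).

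Other genes were taken from 3 lists, made by words in the gene descriptions or by locus. They held phosphate transporters and SPX proteins (25 genes), starvation response and its regulators (34 genes) and genes picked for mycorrhiza or symbiosis (13 genes). The last, here the symbiosis list, includes nucleoporins and genes described only as similar to symbiosis-related proteins. It does not stand for arbuscular mycorrhiza alone. Under deficit in 35S TRAP, 2 transporters rose and 3 fell of 23 tested (median -0.22, against -0.04 over all genes), and 6.03% of all genes rose and 8.38% fell. Of 33 starvation genes 2 rose and 11 fell (median -0.50), and of 13 genes of the symbiosis list 1 rose and 3 fell (median -0.15). The largest change was in OS04G0185600, described in the files as having a general substrate transporter domain, from 2.87 ± 1.15 TPM in control I to 202 ± 95.0 TPM in deficit (5.62 ± 0.38, adjusted p = 3.77e-11). It passed in all 8 deficit sets, with a change of 3.50 in QHB to 5.86 in 35S TOTAL. The next largest in 35S TRAP were OS12G0637100 and OS12G0151000, both similar to purple acid phosphatases, which release phosphate from organic compounds (-2.84 ± 0.29 and 2.59 ± 0.34). OS03G0689300, a plasma membrane H+ ATPase, rose from 20.9 ± 6.71 to 115 ± 4.24 TPM (2.46 ± 0.24, adjusted p = 3.91e-08), and OS04G0665600, similar to a phosphate starvation response regulator, fell from 21.6 ± 9.19 to 3.48 ± 0.861 TPM (-2.27 ± 0.41).

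Under submergence in 35S TRAP, 4 transporters rose and 2 fell of 23 (median 0.43, against 0.08 over all genes), and 9.98% of all genes rose and 10.1% fell. Of 33 starvation genes 3 rose and 6 fell (median -0.04), and of 13 genes of the symbiosis list 0 rose and 4 fell (median -0.36). OS04G0665600 rose here, from 7.18 ± 1.08 to 105 ± 15.1 TPM (3.70 ± 0.41, adjusted p = 2.18e-07), and OS03G0689300 fell, from 19.4 ± 5.95 to 1.65 ± 0.176 TPM (-2.91 ± 0.24, adjusted p = 3.04e-09). OS07G0685300, similar to a phosphate starvation regulator, fell (log2 -3 ± 0.31), as did OS10G0116800, similar to a purple acid phosphatase (-2.61 ± 0.41). OS06G0129400, described in the files as a vacuolar phosphate efflux transporter, rose from 9.38 ± 2.43 to 53.0 ± 7.96 TPM (2.40 ± 0.36, adjusted p = 1.27e-05). Against control I, 35S TRAP plates had 10 of 23 transporters higher and 1 lower (median 0.97, against 0.02 over all genes), with 11.5% of all genes higher and 8.97% lower. These 35S TRAP plate libraries also had the high shoot list given above; its part was not tested.

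In ATAC-seq, reads were counted in 35678 regions upstream of genes, with 812498 to 17113727 reads per library (median 3099295). The lowest counts of these 8 genes were 11 to 31 reads. In 35S control I, the region of PT8 held more reads per total than 94.4% of regions, that of PT1 than 80.6% and that of PT4 than 75.5%. PT2 was above 12.7% of regions, and PT11, SPX1, PHO1;2 and PT6 lay between 33.3% and 68.8%. Of 112 tests over 14 comparisons 3 were called by edgeR (adjusted p under 0.05), and 14 had an unadjusted p under 0.05. All 3 were in 35S field against control I, where 51.7% of all regions were called, so 3 of 8 is not above the background. Over all regions, an unadjusted p under 0.05 was reached by 549 (35S waterlogging recovery) to 20483 regions (35S field) per comparison. The 14 are to be read against that background.

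In CPM (counts scaled to a common library total after TMM), PT1 had 16.4, 38.1 and 43.5 in 35S control I and 95.2, 89.8 and 100 CPM in the field (log2 1.5, adjusted p = 1.28e-05). PT8 had 61.5, 47.3 and 58.3 CPM and 91.2, 93.0 and 128 CPM (0.91, adjusted p = 0.00183). Neither pair of groups overlapped. PT1 was also at 62.4 ± 5.60 CPM in control II, against 32.6 ± 14.4 CPM in control I (0.89, edgeR adjusted p = 0.0624, DESeq2 adjusted p = 0.0300), and the field was not compared with control II. PT4 had 28.3, 33.7 and 26.2 CPM and 25.9, 18.0 and 14.5 CPM (-0.64, adjusted p = 0.0125), a call lost without control I replicate 2 (adjusted p = 0.0965) or field replicate 2 (0.0645) or 3 (0.181). In RNA of the same comparison PT4 fell in TRAP, and PT1 and PT8 were called in neither pool. Their changes were -0.38 (adjusted p = 0.470) and -0.84 (0.0964) in TRAP and 0.88 (0.0261) and 0.07 (0.917) in TOTAL.

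In the other 35S comparisons edgeR called 0 of the 8 genes, with an unadjusted p under 0.05 for 2 genes each in waterlogging, submergence, deficit recovery, submergence recovery and control II against control I. Of the 35390 regions tested, 2052, 6186, 5365, 3993 and 9276 reached that p in the same order. The counts of 2 genes are to be read against those numbers. DESeq2 called PT1 in submergence, in submergence recovery against submergence (-0.84, adjusted p = 0.0294; edgeR -0.82, 0.0769) and in control II against control I. The share of all regions that DESeq2 called is not given here. The shares that follow are those of edgeR and are no background for the DESeq2 calls. The share of all regions called was 0.797% in deficit, 0% in waterlogging (2052 regions with an unadjusted p under 0.05), 6.7% in submergence, 0.593% in deficit recovery, 0% in waterlogging recovery (549 regions), 1.74% in submergence recovery and 0.0283% in control II against control I. In CMZ it was 0.0255% in deficit, 0% in waterlogging (1222 regions), 0.00283% in the field, 0.00283% in deficit recovery and 0% in waterlogging recovery (642 regions), and in QHB it was 0% in deficit (3145 regions). PT1 under submergence had 67.9, 62.7 and 56.7 CPM in control II and 112, 120 and 80.5 CPM in submergence, without overlap (0.74, adjusted p = 0.0558). The adjusted p of DESeq2 was 0.0253. PHO1;2, whose RNA was called as lower in all 3 submerged sets, had 16.8, 15.0 and 19.0 CPM and 12.5, 10.5 and 8.87 CPM (-0.66, adjusted p = 0.0971). Under deficit, PT4 had 29.4 ± 3.87 CPM in control I and 39.2 ± 7.75 CPM (0.41, adjusted p = 0.565), PT2 13.3 ± 1.70 and 15.4 ± 4.80 CPM (0.17, adjusted p = 0.920). The upstream region of PT11, the mycorrhizal carrier, was at 17 ± 5.34 CPM in 35S control I, 19.7 ± 2.41 CPM in deficit, 14.3 ± 1.98 CPM in submergence and 14.8 ± 2.23 CPM in the field, and was called in 0 of the comparisons.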

How the data were processed

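Values were TPM made by the authors: per the file headers, genes above 3 cpm in at least 1 condition were kept and quantile-normalised reads were converted to TPM. The ATAC-seq counts of reads in regions upstream of genes were deposited by the authors without normalisation. The submitters' processing notes name TopHat2, Bowtie2, HOMER and limma and the build IRGSP-1.0. The sources used here give no versions, strand setting or handling of multiply mapped reads, and quantile normalisation makes the libraries' distributions alike. TPM values were tested with limma 3.58.1 (R 4.3.3), with eBayes and a mean trend, on log2(TPM + 1), keeping genes that reached 1 TPM in 3 or more libraries of a fit. A fit held the environments of 1 line and pool, or the lines of 1 environment. For TRAP against TOTAL it held both pools of the 35S line in all 10 environments. For responses that differ between lines it held the TRAP libraries of the lines compared, in the stress or field and its control. ATAC counts were tested with edgeR 4.0.16 (quasi-likelihood, TMM, filterByExpr); DESeq2 1.42.0 was an alternative. Other settings were a pseudocount of 0.1, no filter, median-ratio rescaling, only the groups compared, a replicate block and leaving out each library. Replicate numbers were taken to pair samples where each same-number correlation of deviations was over 0.1; this held, among others, for TRAP against TOTAL in all 10 environments and for 35S TRAP waterlogging (r from 0.497 to 0.635), and for no ATAC comparison. An exact permutation test of 3 against 3 libraries cannot go below p = 0.1 and was not used. The genes and lists were chosen with earlier results of these data known. Other genes are named where they were among the 5 largest called changes of a list or among the 3 most similar patterns (over genes with at least 5 TPM in 1 group mean). No columns were left unmatched (0). Coordinates, promoter sequences and motifs were not analysed here.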

Additional observations from a re-analysis of the deposited data

Results flagged for a closer look

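PT6 in the CMZ plate group stood out because 1 of its 4 libraries lay far from the others: replicate 1 held 1.505 TPM and the others 0.195, 0.200 and 0.222 TPM. The gap was 0.97 of the whole range, above Dixon's limit for 4 samples; chance passes that limit in about 1 in 20 groups. All 4 values are near or under the 1 TPM filter.

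The response to water deficit differed between lines for PT8 (adjusted p = 0.0195, moderated F test) and PT6 (adjusted p = 0.0489). PT6 was near the floor in several lines, which the test cannot tell from a different response. PT8 rose in LSI1 (log2 1.48); in 35S TRAP its change was -0.98, under the fold limit. The response to submergence differed between 35S TRAP and RSS1 for PHO1;2 (adjusted p = 0.0288; log2 -3.21 and -1.48) and for PT2 (adjusted p = 0.0415; log2 0.52 in 35S TRAP, where the groups overlapped and the change was not called, and -1.13 in RSS1). All 4 calls were lost without at least 1 single library.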

How the results depend on the processing

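Of 152 calls, 55 were lost without at least 1 library and 23 under at least 1 other setting; 0 values of called results reversed. Counts of calls moved beyond 1.5 times in these cases: waterlogging from 0 to 1 with the replicate block, the field from 6 to 3 with only the groups compared, responses that differ between lines from 4 to 2 with a pseudocount of 0.1, and ATAC from 3 to 6 with DESeq2, 8 with only the groups compared and 6 with the replicate block. The cause was not tested. Leaving out single libraries gave 20 to 23 calls in deficit (22 with all), 0 to 0 in waterlogging, 9 to 11 in submergence, 24 to 27 in recovery against stress, 2 to 3 in recovery against the control, 5 to 7 in the field, 12 to 15 on plates, 0 to 0 between the controls, 43 to 48 between lines, 16 to 20 between TRAP and TOTAL, 2 to 5 for responses that differ between lines and 2 to 5 in ATAC. The replicate block gave 48 calls between lines, 5 for responses that differ between lines and the same count as without it in the families not named here. It took the limma call of PHO1;2 on QHB plates (adjusted p = 0.0663). It gave one to PT8 on SCR plates (0.0497), PHO1;2 in CMZ control I (0.0173) and the PHO1;2 deficit response between lines (0.00257). In the first 3 of these the samples share only a number. For the last, deficit and control I samples met the pairing rule given above in RSS1 alone of the 7 lines. PT6 is close to the filter in most groups, and its low values limit what can be detected.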
